A study of Schizosaccharomyces pombe with 40 samples.

Results

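The 100 protein-coding genes described here reached their highest poly(A)+ RNA level in wt fission yeast 6 h after induction of a synchronized meiosis. They were chosen by the wt values themselves. For each protein-coding feature, log2(CPM + 1), where CPM scales counts to a common library total, was averaged over the wt replicates of each stage. Features highest at 6 h were kept, and their score was the 6 h value minus the median of the other 9 stages. Of 12684 annotated features, 5152 were protein-coding, 342 of these were highest at 6 h in wt cells, and the 100 with the highest scores are the members. Scores ran from 8.59 for *ght6* to 1.97 for *spn5*, with a median of 2.76. The last members inside the limit included *cut20* (1.98) and *spn5*, and the features just outside it were *mug98* (1.97), *mmc1* (1.96) and *chs2* (1.94). The wt peak at 6 h is therefore the criterion of choice and not a result, whereas the values in the mutant strain played no part in it.

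The mutant, snR107kloopmut, carries a mutated kink-loop motif between the D′ and C′ boxes of the C/D-box snoRNA *snR107*, and was compared with wt. Both strains were haploid h- cells with the *leu1-32* and *pat1-L95G::kanR* alleles, so the wt cells also carried the analogue-sensitive Pat1 kinase, and meiosis was started in haploid cells without mating or homologous chromosomes. Cells were taken during vegetative growth (V) in minimal medium at 30 °C, after 15 to 16 h without nitrogen (-N), and then every hour from 1 h to 8 h after 25 µM of the Pat1 inhibitor 3-MB-PP1 had been added with leucine and ammonium chloride. With 2 biological replicates of each of the 10 stages in both strains, there were 20 groups and 40 libraries. Aliquots of a culture followed over time are not independent cultures. The p-values measure the spread between the 2 libraries of a group, pooled over all 20 groups. In such bulk samples a lower level can come from fewer cells that express a gene or from less RNA per cell, and these cannot be told apart.

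Meiosis in fission yeast runs as a cascade of transcription waves. The factor Ste11 opens sexual differentiation, premeiotic S phase and recombination genes follow, and the forkhead factor Mei4 then drives the middle genes, which are needed for the nuclear divisions and for the building of spores. In the divisions, the anaphase-promoting complex (APC/C), a ubiquitin ligase, removes securin and cyclins. During the second division, forespore membranes grow around the nuclei, and spore walls of glucans and other polymers are laid down between their layers.

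Total counts per library lay between 22889781 and 35440184, so that 3 counts, taken as the floor for detection, corresponded to 0.0847 to 0.131 CPM and counting error was small for most members. All 100 members passed the filter on low counts. Levels are given as RPKM on library sizes scaled by TMM (trimmed mean of M values), and differences are on the log2 scale of the edgeR fit. Between the cultures of a group, the median member differed by 0.07 to 0.29 on the log2 scale. Stage markers followed the labels. The cohesin gene *rec8* was highest at 4 h in snR107kloopmut and at 3 h in wt cells, the forkhead factor gene *mei4* at 6 h in snR107kloopmut and, on the CPM scale, at 5 h in wt cells, and the spore wall gene *isp3* was highest at 8 h in both. On the RPKM scale wt *mei4* was highest at 6 h. It had 59.1 and 70.4 RPKM in the snR107kloopmut cultures at 5 h, against 172 and 170.0 RPKM in the wt cultures, 168 and 181 RPKM at 6 h, against 185 and 205 RPKM in wt, and 131 and 152 RPKM at 7 h, against 54.9 and 60.7 RPKM in wt. Whether the counting used the strand is not given in the sources used here. Where 1 feature lay wholly within a longer one on the other strand, the longer one held at least as many counts in 94.9% of 147480 comparisons, so the levels of genes that overlap on opposite strands cannot be told apart. Members described below that lie wholly within a longer non-coding feature include *ght6*, *atf21*, *rsv1*, *meu14*, *cut2* and *clp1*. In wt replicate 1 at 6 h, *ght6* had 259094 counts and its enclosing feature 249546, and *rsv1* had 656 and its enclosing feature 2456. Their levels may hold reads of those features.

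In snR107kloopmut cells the members also formed a wave, and it came 1 h later. Of the 100 members, 89 were highest at 7 h, 6 at 6 h and 5 at 8 h, on the same log2(CPM + 1) scale as the rule. In the single cultures, 82 and 90 members were highest at 7 h. With TMM scaling, 78 members were highest at 7 h, 22 at 8 h and none at 6 h. Over all 5152 protein-coding features, 6.4% were highest at 7 h in this strain. Of the 242 other protein-coding features that were highest at 6 h in wt, 71.5% were.

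**Figure D1:**
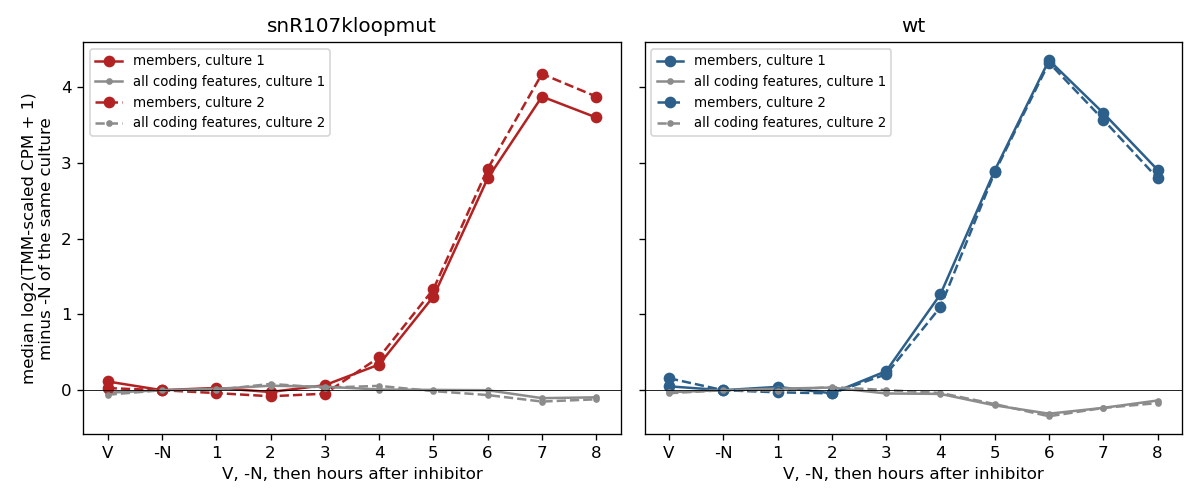
Median over the 100 members (coloured) and over all protein-coding features (grey) of log2(TMM-scaled CPM + 1) minus the -N value of the same culture, for snR107kloopmut (left) and wt (right) at V, -N and each hour after inhibitor; solid and dashed lines are the 2 cultures. In both snR107kloopmut cultures the members were highest at 7 h, whereas in wt, which chose the members, they were highest at 6 h.

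The members together held 4.65% and 5.13% of all counts in the snR107kloopmut cultures at 6 h, 8.04% and 8.44% at 7 h, and 6.69% and 6.53% at 8 h. In wt cultures they held 9.82% and 9.99% at 6 h, 5.64% and 5.83% at 7 h, and 3.59% and 3.50% at 8 h. In -N cells of either strain they held no more than 0.592%. Both cultures of a strain gave the same order of 6 h, 7 h and 8 h.

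Relative to -N cells, 99 members were higher in snR107kloopmut cells at 6 h (edgeR's quasi-likelihood test, Benjamini-Hochberg adjusted p below 0.05), where 31.9% of the 12019 features tested were higher, and no member was lower, with no unadjusted p below 0.05 by edgeR or DESeq2 in that direction, against 34.2% of all features. The median difference was 2.99 over the members and −0.08 over all features tested. Between 6 h and 7 h, 99 members rose further in snR107kloopmut cells and none fell (none at an unadjusted p below 0.05 by edgeR or DESeq2), against 21.4% of all features higher and 23.1% lower. The median rise was 1.13 over the members, against −0.03 over all features. The test was passed with a rise of at least 1 on the log2 scale by 64 members, against 935 of the 12019 features. The exceptions were *rsv1*, whose 6 h level did not pass the test against -N cells, at 0.39 ± 0.32 (SE; adjusted p = 0.294), and *snp27*, a U4/U6.U5 small nuclear ribonucleoprotein gene, whose step between 6 h and 7 h did not pass, at 0.37 ± 0.16 (SE; adjusted p = 0.0639). Scaling moved these steps. With library totals in place of TMM the median of all features between 6 h and 7 h was −0.53 and the median of the members was 0.62. On that scale 67 members were higher and none lower, against 933 and 6059 of the 12019 features.

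Between 7 h and 8 h the members of snR107kloopmut cells had passed their highest point or stayed near it. No member was higher at 8 h by edgeR or DESeq2 (none at an unadjusted p below 0.05 by either tool), where 14.2% of all features were, and 25 members were lower, against 10.6% of all features. The median difference was −0.17, and none of the 25 fell by as much as 1 on the log2 scale. This count depends on the replicates, as does that of all features. Without snR107kloopmut replicate 1, 5 members were lower, against 240 of 12097 features tested, and the member median was −0.19. Without snR107kloopmut replicate 2, 4 members were lower, against 307 of 12106 features, and the median was −0.15. With library totals 44 members were lower, against 2414 of the 12019 features tested.

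**Figure D2:**
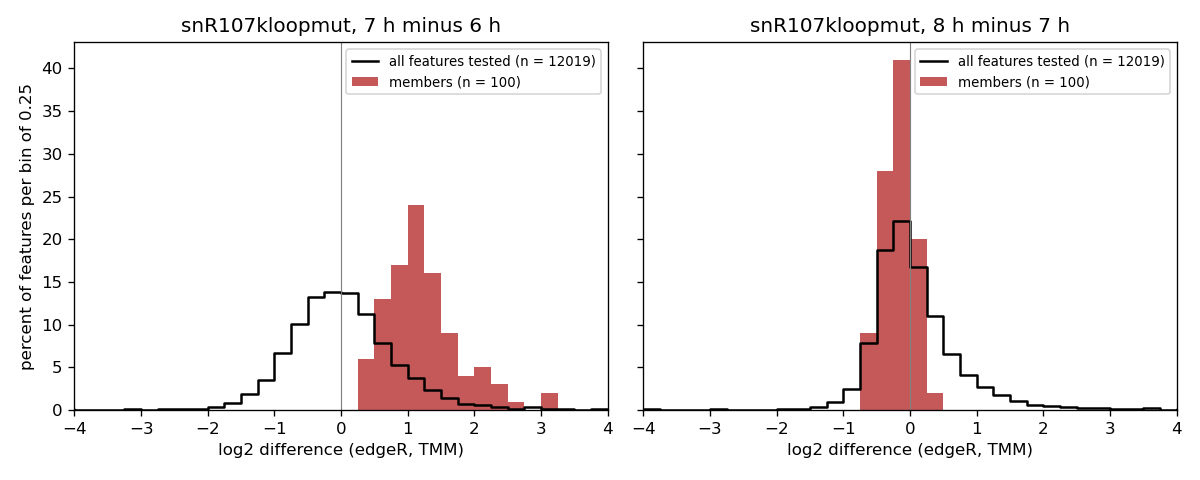
Percent of features per bin of log2 difference in snR107kloopmut cells for 7 h minus 6 h (left) and 8 h minus 7 h (right), for the 100 members (filled bars) and all 12019 features tested (line). The members lie above 0 in the first step, with a median of 1.13, and around −0.17 in the second.

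Several genes of spore building were among the highest scores. *meu17* (SPBC14C8.05c, chrII:2211798-2213372, minus strand), a glucan alpha-1,4-glucosidase gene, had 11.4 and 11.2 RPKM in -N cells, 827 and 1081 at 6 h and 3393 and 4673 at 7 h in the snR107kloopmut cultures, against 11.0 and 10.7 in -N cells, 3938 and 4283 at 6 h and 4281 and 4624 at 7 h in the wt cultures. In snR107kloopmut cells it rose by 2.08 ± 0.17 (SE; adjusted p = 1.39e-10) between 6 h and 7 h, and at 7 h the cultures of both strains overlapped. *gas4* (SPBC342.03, chrII:4206247-4207715, plus strand) encodes the beta-1,3-glucanosyltransferase that elongates spore wall glucan. It had 978 and 1377 RPKM in snR107kloopmut at 6 h and 6086 and 7993 at 7 h, against 3680.2 and 3376 at 6 h and 2615 and 2523 at 7 h in wt. Its rise of 2.58 ± 0.17 (SE; adjusted p = 2.64e-12) between 6 h and 7 h took both snR107kloopmut cultures above the highest wt library of any stage.

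*spo3* (SPAC607.10, chrI:2052798-2057177, plus strand), which is needed for the forespore membrane, had 8.76 and 9.32 RPKM in the snR107kloopmut cultures at 5 h, 69.4 and 82.8 at 6 h, 304 and 339.7 at 7 h and 373 and 349 at 8 h. In wt cultures it had 47.5 and 55.9 at 5 h, 346 and 385 at 6 h, 289.7 and 321 at 7 h and 183 and 172 at 8 h. The rise in snR107kloopmut between 6 h and 7 h was 2.08 ± 0.12 (SE; adjusted p = 4.01e-13). On this TMM scale the strains overlapped at 7 h, whereas relative to library totals both snR107kloopmut cultures lay above both wt cultures. *meu10* (SPCC1223.12c, chrIII:1866916-1870095, minus strand), a GPI-anchored spore wall protein gene, had the highest mean level of the members at 6 h in wt and at 7 h in snR107kloopmut. It had 3046 and 3543 RPKM at 6 h and 7217 and 7576 at 7 h in snR107kloopmut, against 10195 and 11029.8 at 6 h and 5583 and 5906 at 7 h in wt, and rose by 1.17 ± 0.19 (SE; adjusted p = 1.82e-05) in snR107kloopmut between 6 h and 7 h.

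Glucan synthases build the polymers of the spore wall, and *bgs2* and *mok11* were members. *bgs2* (SPAC24C9.07c, chrI:3053214-3059282, minus strand), the spore wall beta-1,3-glucan synthase gene, had 67.2 and 68.3 RPKM at 6 h, 104 and 113 at 7 h and 81.4 and 82.0 at 8 h in snR107kloopmut, against 246 and 246 at 6 h, 129 and 135 at 7 h and 71.2 and 59.8 at 8 h in wt, so its highest snR107kloopmut library stayed below the lowest wt library at 6 h. *mok11* (SPAC1527.01, chrI:4374363-4382775, plus strand), an alpha-glucan synthase gene, had 78.8 and 93.8 RPKM at 6 h and 142 and 143 at 7 h in snR107kloopmut, against 225 and 236 at 6 h and 99.6 and 96.1 at 7 h in wt, so that snR107kloopmut was the lower strain at 6 h and the higher at 7 h. Both rose between 6 h and 7 h in snR107kloopmut, *bgs2* by 0.68 ± 0.11 (SE; adjusted p = 7.43e-06) and *mok11* by 0.72 ± 0.11 (SE; adjusted p = 8.69e-06), although neither rise passed the test with library totals. Between 7 h and 8 h *bgs2* fell by 0.41 (adjusted p = 0.00462) and *mok11* fell by 0.59 (adjusted p = 0.000254).

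Septins form the ring-like scaffolds that guide the forespore membrane. *spn2* (SPAC821.06, chrI:990205-991889, plus strand) had 735 and 762 RPKM at 6 h and 1987 and 1986 at 7 h in snR107kloopmut, against 1932 and 1923 at 6 h and 1298 and 1385 at 7 h in wt, and rose by 1.41 ± 0.12 (SE; adjusted p = 3e-10). The meiotic septin gene *spn5* (SPAC24C9.15c, chrI:3074267-3075988, minus strand), which shares no base with another feature, had 232 and 245 RPKM at 6 h and 384 and 525 at 7 h in snR107kloopmut, against 255 and 189.8 at 6 h and 123 and 97.5 at 7 h in wt. On this TMM scale its strains overlapped at 6 h, whereas relative to library totals both snR107kloopmut cultures lay above both wt cultures. In snR107kloopmut *spn5* rose by 0.93 ± 0.13 (SE; adjusted p = 2.57e-06). *meu14* (SPBC1347.03, chrII:4066294-4067457, plus strand), whose product sits at the leading edge of the forespore membrane, had 378 and 439 RPKM at 6 h and 709.8 and 974 at 7 h in snR107kloopmut, all above the wt cultures at 6 h (283 and 243), and rose by 1.04 ± 0.14 (SE; adjusted p = 7e-07). *spo6* (SPBC1778.04, chrII:3103097-3104941, plus strand), the regulatory subunit gene of the Spo4 kinase of the second division, had 130.0 and 179.5 RPKM at 6 h and 529 and 829.5 at 7 h in snR107kloopmut, against 471 and 299 at 6 h and 193 and 160.0 at 7 h in wt, and rose by 2.13 ± 0.19 (SE; adjusted p = 8.95e-10). All of *spo6* lies within *lam2* on the other strand, and its value cannot be told from that gene's.

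**Figure D3:**
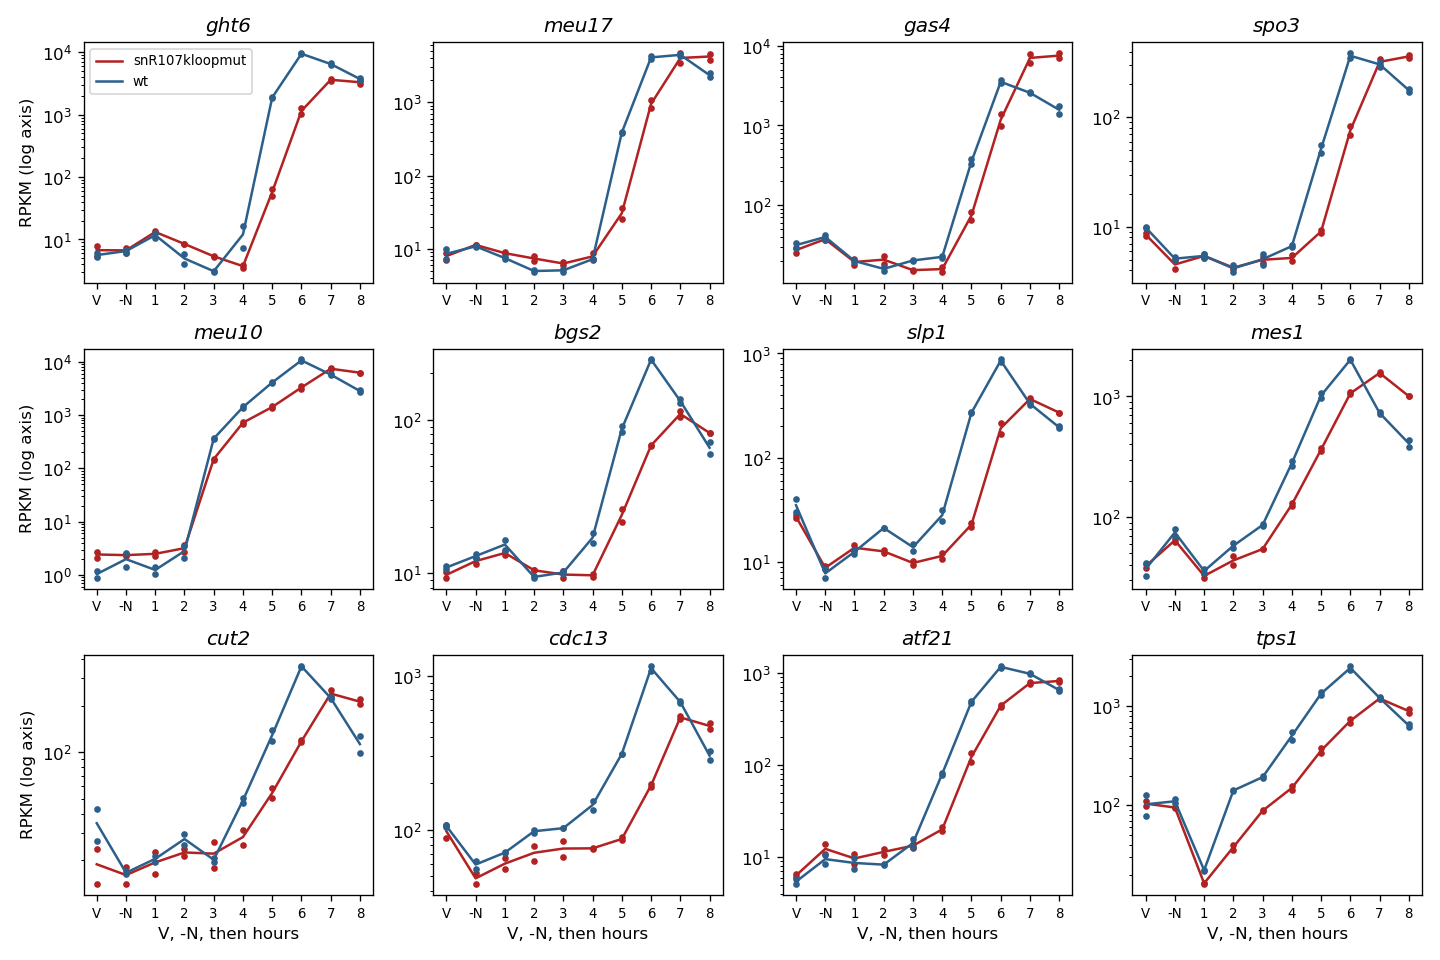
RPKM (log axis) of 12 members at V, -N and each hour after inhibitor; points are single cultures and lines their means, snR107kloopmut in red and wt in blue. *meu10* reached 7217 and 7576 RPKM at 7 h in snR107kloopmut, against 10195 and 11029.8 RPKM at 6 h in wt, and all 12 genes were lower in both snR107kloopmut cultures than in both wt cultures at 6 h.

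A second group acts in chromosome segregation. *slp1* (SPAC821.08c, chrI:994941-997635, minus strand), the Cdc20-type activator of the APC/C, had 21.8 and 23.8 RPKM at 5 h, 168 and 216 at 6 h, 361 and 372 at 7 h and 271 and 270.3 at 8 h in snR107kloopmut. In wt it had 273 and 268 at 5 h, 833 and 875 at 6 h, 323 and 335 at 7 h and 200.2 and 191 at 8 h. It rose by 0.93 ± 0.13 (SE; adjusted p = 2.18e-06) between 6 h and 7 h in snR107kloopmut, yet its highest snR107kloopmut library was below the lowest wt library at 6 h. *mes1* (SPAC5D6.08c, chrI:1498898-1500084, plus strand), an inhibitor of the APC/C that lets cells enter the second division, had 1043 and 1081 RPKM at 6 h, 1589.5 and 1544 at 7 h and 1010.3 and 1001 at 8 h in snR107kloopmut, against 2028 and 2009.9 at 6 h, 739.7 and 719 at 7 h and 435 and 381 at 8 h in wt. The *mes1* step between 6 h and 7 h was 0.56 ± 0.11 (SE; adjusted p = 0.000124), which did not pass with library totals, and it fell by 0.64 between 7 h and 8 h (adjusted p = 5.5e-05), the largest fall of the members.

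The core of the APC/C was represented by *cut4* (Apc1), *apc2*, *cut20* (Apc4) and *apc5*, and its E2 enzyme by *ubc11*; these 5 genes were picked for their annotation after the members were known. *cut4* had 66.1 and 69.3 RPKM at 6 h and 102 and 101 at 7 h in snR107kloopmut, against 179 and 185 at 6 h in wt. *ubc11* had 589 and 566 RPKM at 6 h and 1339.9 and 1187 at 7 h in snR107kloopmut, against 1244 and 1301 at 6 h in wt. The 4 core subunits rose by 0.58 to 0.80 between 6 h and 7 h in snR107kloopmut, less than the median member, and *ubc11* by 1.13 ± 0.14. With library totals the rises of the 4 subunits did not pass the test, while that of *ubc11* did. Each of the 4 then fell between 7 h and 8 h, by 0.34 to 0.51. *mfr1* (SPBC1198.12, chrII:194678-195989, plus strand), the meiotic APC/C activator, behaved unlike them, with 35.4 and 42.5 RPKM at 6 h, 157 and 253 at 7 h and 206 and 286 at 8 h in snR107kloopmut, against 138 and 93.7 at 6 h and 75.9 and 51.9 at 8 h in wt. It rose by 2.39 ± 0.22 (SE; adjusted p = 1.53e-09) between 6 h and 7 h, but it lies wholly within *tfg2* on the other strand.

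The members also included genes for substrates of the APC/C. The securin gene *cut2* (SPBC14C8.01c, chrII:2203000-2204216, minus strand) had 116 and 119 RPKM at 6 h and 227 and 251 at 7 h in snR107kloopmut, against 362 and 355 at 6 h and 221 and 226 at 7 h in wt, and rose by 1.03 ± 0.20 (SE; adjusted p = 0.000178), which did not pass with library totals. The B-type cyclin gene *cdc13* (SPBC582.03, chrII:420111-423276, plus strand) had 85.3 and 89.2 RPKM at 5 h, 189 and 199 at 6 h and 547 and 524 at 7 h in snR107kloopmut, against 311 and 311 at 5 h, 1073 and 1158 at 6 h and 667 and 679 at 7 h in wt. It rose by 1.46 ± 0.13 (SE; adjusted p = 5.27e-10), and no snR107kloopmut library reached the wt level of 6 h. Other members of this group, chosen by annotation, were *nbl1* (a borealin-like subunit of the chromosomal passenger complex), *klp5* (kinesin-8), *dma1* (a checkpoint ubiquitin ligase), *mob1* (partner of the Sid2 kinase) and *clp1* (a Cdc14-type phosphatase), whose rises between 6 h and 7 h ran from 0.75 for *mob1* to 1.46 for *nbl1*. With library totals *mob1* and *clp1* did not pass.

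Among transcription factors, *atf21* (SPBC2F12.09c, chrII:1723013-1724450, plus strand), which encodes a bZIP factor of the Atf/CREB family, had 432 and 451 RPKM at 6 h, 762 and 791 at 7 h and 789 and 847 at 8 h in snR107kloopmut, against 1129 and 1199 at 6 h, 965 and 992 at 7 h and 668 and 634 at 8 h in wt. It rose by 0.81 ± 0.14 (SE; adjusted p = 2.68e-05) and did not pass with library totals. *rsv1* (SPBP4H10.09, chrII:2888450-2889979, plus strand), a zinc-finger repressor gene, had 4.03 and 4.03 RPKM in -N cells, 4.12 and 6.46 at 6 h and 12.2 and 14.4 at 7 h in snR107kloopmut, against 2.67 and 3.19 in -N cells and 30.6 and 37.9 at 6 h in wt. Its rise in snR107kloopmut between 6 h and 7 h was 1.33 ± 0.32 (SE; adjusted p = 0.00132), and all snR107kloopmut libraries stayed below both wt libraries of 6 h.

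Some members act in carbohydrate transport and metabolism. *ght6* (SPCC1235.13, chrIII:204733-206717, plus strand), a hexose transporter gene with the highest score, had 49.9 and 65.5 RPKM at 5 h, 1033 and 1264 at 6 h and 3465 and 3783 at 7 h in snR107kloopmut, against 1875 and 1889.7 at 5 h, 9308 and 9619 at 6 h and 6273 and 6693 at 7 h in wt. It rose by 1.66 ± 0.22 (SE; adjusted p = 7.77e-07) between 6 h and 7 h, and at 7 h both snR107kloopmut cultures lay below both wt cultures. *tps1* (SPAC328.03, chrI:3479149-3481305, plus strand), the trehalose-6-phosphate synthase gene, had 676 and 750.2 RPKM at 6 h and 1199 and 1196 at 7 h in snR107kloopmut, against 2307 and 2569 at 6 h and 1176 and 1252 at 7 h in wt. Its rise of 0.75 ± 0.14 (SE; adjusted p = 0.000112) did not pass with library totals. SPAC22F8.05, annotated as a second trehalose-phosphate synthase, and *pgm1*, the phosphoglucomutase gene, rose by 1.16 and 1.41 between 6 h and 7 h in snR107kloopmut; both were named for their annotation.

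The other members with the highest scores were *mug73*, *mug96* and the *wtf* genes. *mug73* (SPCC31H12.02c, chrIII:623516-624527, minus strand), a transporter gene, had 217 and 275 RPKM at 6 h and 700.1 and 794 at 7 h in snR107kloopmut, against 1036 and 1130.4 at 6 h and 681 and 702 at 7 h in wt, and rose by 1.60 ± 0.15 (SE; adjusted p = 2.82e-09). *mug96* (SPBC1271.06c, chrII:359903-360366, plus strand), of no stated function and overlapped by no other feature, had 0.17 and 0.44 RPKM in -N cells, 66.8 and 64.9 at 6 h and 266 and 248 at 7 h in snR107kloopmut, against 0.23 and 0.064 in -N cells, 193 and 209.9 at 6 h and 173 and 213 at 7 h in wt. It was nearly undetected before induction, and it rose by 1.97 ± 0.24 (SE; adjusted p = 3.01e-07) between 6 h and 7 h.

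The *wtf* genes are selfish meiotic drive elements with many near-identical copies, so reads may be shared between copies and single values are uncertain. Of 25 *wtf* genes named in the annotation, 3 were members. *wtf23* had 324 and 334 RPKM at 7 h in snR107kloopmut, against 630.2 and 695 at 6 h in wt. *wtf4* had 303 and 309 at 7 h in snR107kloopmut, against 566 and 593 at 6 h in wt, and *wtf19* had 438 and 433 at 7 h in snR107kloopmut, against 883 and 911 at 6 h in wt. Each snR107kloopmut library at 7 h was below every wt library at 6 h. Between 6 h and 7 h in snR107kloopmut, *wtf23* rose by 0.77, *wtf4* by 1.17 and *wtf19* by 0.82, of which *wtf23* and *wtf19* did not pass with library totals.

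The next 3 members were picked for their annotation with the actin cytoskeleton, after their values were seen. The formin gene *for3* had 23.0 and 36.1 RPKM at 6 h and 75.4 and 105 at 7 h in snR107kloopmut, against 206 and 237 at 6 h and 123 and 121 at 7 h in wt, and rose by 1.61 between 6 h and 7 h in snR107kloopmut. *pxl1*, which encodes a paxillin-like protein, rose by 1.51, and *myo51*, a class V myosin gene, by 0.82. Of these 3, *myo51* did not pass with library totals. Before the wave, *pxl1* had 2.11 and 1.25 RPKM at 5 h in snR107kloopmut, below its 6.75 and 6 RPKM in -N cells of the same strain. A dip was also seen in wt, where its counts went from 458 and 372 in -N cells to 78 and 93 at 4 h.

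**Figure D4:**
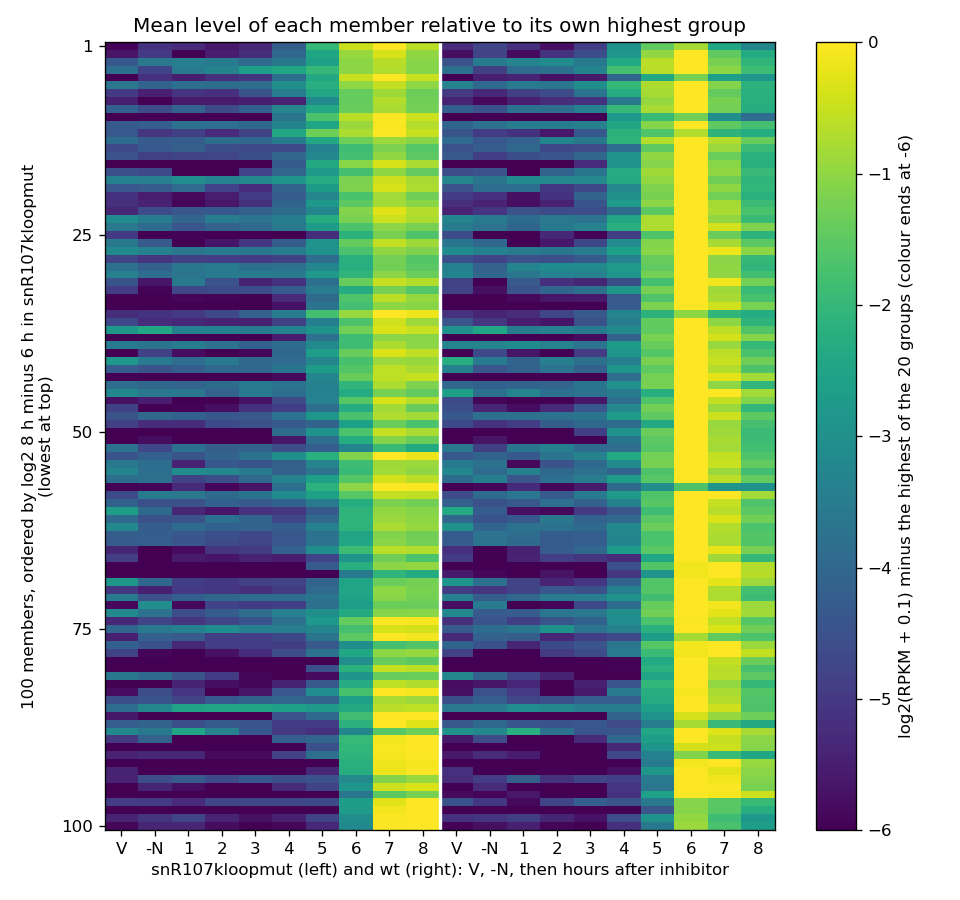
Mean log2(RPKM + 0.1) of each of the 100 members minus its own highest group, in snR107kloopmut (left of the white line) and wt (right) at V, -N and each hour; members run from the lowest to the highest log2 difference of 8 h minus 6 h in snR107kloopmut. Yellow marks levels near a member's highest group. The brightest column is 7 h in snR107kloopmut and 6 h in wt, and the lower part of the map stays bright at 8 h in snR107kloopmut.

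Compared at the same hour, the members were low in snR107kloopmut cells at first and high later. These contrasts contain the wt values that chose the members, so the counts are a description, and nothing is read from their distance to the share of all features. At 5 h, 94 members were lower in snR107kloopmut, against 35.4% of all features, and 2 were higher, against 34.0%. At 6 h, 94 were lower, against 31.8% of all features, and 3 higher, against 36.7%, with a median difference of −1.78 over the members and 0.11 over all features. At 7 h, 35 were lower, against 30.7% of all features, and 35 higher, against 34.4%, and the median was 0.07. With library totals the 7 h split became 11 lower, against 2269 of the 12019 features tested, and 54 higher, against 5561. At 8 h, 5 were lower, against 27.2%, and 77 higher, against 26.1%, with a median of 0.80.

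The levels at the top of the wave also differed from gene to gene. The highest stage of snR107kloopmut minus the highest stage of wt had a median of −0.70 on the TMM-scaled log2(CPM + 1) scale, with 83 members lower and 17 higher in snR107kloopmut, and 30 members were lower and 7 higher by at least 1. On the scale of library totals the median was −0.41, with 77 lower and 23 higher, and 10 were lower and 12 higher by at least 1. Since wt values chose the members, a lower top in the other strain is not a finding. The snR107kloopmut wave itself was nevertheless steep. The 7 h value minus the median of the other 9 stages was above 0 for all 100 members and at least 1 for 99, which held for 8.79% of the protein-coding features, and 41 members were among the 100 protein-coding features with the highest values of this measure.

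*mug94*, *prl46*, *meu14* and *aah2* had the largest snR107kloopmut minus wt differences at 6 h. *prl46* (SPAC144.19, chrI:4651351-4651884, minus strand), a gene specific to the genus, had 625 and 597 RPKM at 6 h and 1016 and 876 at 7 h in snR107kloopmut, against 372 and 402 at 6 h and 114 and 119.6 at 7 h in wt. *mug94* (SPAC10F6.07c, chrI:1218321-1218887, minus strand) had 293 and 297 at 6 h and 433 and 399 at 7 h in snR107kloopmut, against 211 and 146 at 6 h and 68.7 and 66.6 at 7 h in wt. *aah2* (SPAC23D3.14c, chrI:4373039-4374987, minus strand), an alpha-amylase gene that shares bases with *mok11*, had 407 and 461 at 6 h and 574 and 646 at 7 h in snR107kloopmut, against 389.8 and 322 at 6 h and 126 and 99.5 at 7 h in wt. With library totals the steps of *prl46*, *mug94* and *aah2* between 6 h and 7 h did not pass. In all 4 genes, both snR107kloopmut cultures at 6 h lay above both wt cultures, and their highest snR107kloopmut stage was above the highest wt stage.

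At the other end were SPBCPT2R1.01c, SPAC212.01c, *mug72* and *abc1*. *mug72*, an oxidoreductase gene, had 35.0 and 41.1 RPKM at 7 h and 32.2 and 25.8 at 8 h in snR107kloopmut, against 90.8 and 76.3 at 7 h and 45.8 and 38.8 at 8 h in wt, where it had 147 and 149 at 6 h. *abc1*, an ABC transporter gene, had 13.5 and 13.9 at 6 h and 43.3 and 46.5 at 7 h in snR107kloopmut, against 122 and 141 at 6 h and 102 and 111 at 7 h in wt. SPAC212.01c had 2.78 and 2.38 at 6 h and 6.4 and 8.13 at 7 h in snR107kloopmut, against 26.0 and 30.4 at 6 h in wt, and SPBCPT2R1.01c had 3.93 and 3.01 at 7 h in snR107kloopmut, against 10.7 and 9.54 at 6 h in wt. The last pair are uncharacterized genes near chromosome ends, where repeated sequence makes read assignment uncertain, and their levels were low. The rise of SPAC212.01c between 6 h and 7 h did not pass with library totals. All 4 stayed below every wt library of 6 h at each snR107kloopmut stage shown.

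Members differed in how long they stayed high. Next to 6 h, 59 members were highest at 7 h in wt, 40 at 5 h and 1, *crp79*, at 4 h. In snR107kloopmut the 59 had a median rise of 1.41 between 6 h and 7 h and a median of −0.07 between 7 h and 8 h, whereas the 40 had medians of 0.81 and −0.39. All 5 members that were highest at 8 h in snR107kloopmut were among the 59, and all 6 that were highest at 6 h were among the 40. Of the 25 members that fell between 7 h and 8 h, all but *shg1* and *dma1* belonged to the 40. This is a description over genes measured in the same libraries, and the difference between these sets was not tested.

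The latest members in snR107kloopmut, by 8 h minus 6 h, were *meu27*, *chk1*, *gas4* and *mfr1*. *chk1* (SPCC1259.13, chrIII:1059796-1064443, plus strand), which encodes a DNA damage checkpoint kinase, had 24.7 and 28.4 RPKM at 6 h, 174 and 251 at 7 h and 209 and 227 at 8 h in snR107kloopmut, against 133 and 89.5 at 6 h, 72.8 and 46.1 at 7 h and 36.8 and 25.8 at 8 h in wt. *meu27* (SPCC1259.14c, chrIII:1061503-1064195, minus strand), of unknown role here, had 37.6 and 46.1 at 6 h, 295 and 441 at 7 h and 355 and 395 at 8 h in snR107kloopmut, against 249 and 153 at 6 h, 141 and 85.6 at 7 h and 69.3 and 50.6 at 8 h in wt. *meu27* lies wholly within *chk1* on the other strand, so these are not independent measurements. The earliest by the same measure were *aah2*, *mes1*, *css1* and *snp27*. *css1*, an inositol phosphosphingolipid phospholipase gene, had 353 and 392 RPKM at 6 h, 487 and 488 at 7 h and 373 and 352 at 8 h in snR107kloopmut, and *snp27* had 97.4 and 113, then 139 and 133, then 102 and 104. For these 4 the levels at 8 h were back near those at 6 h, and with library totals the step between 6 h and 7 h was −0.02 for *aah2*, 0.05 for *mes1*, −0.12 for *css1* and −0.14 for *snp27*.

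**Figure D5:**
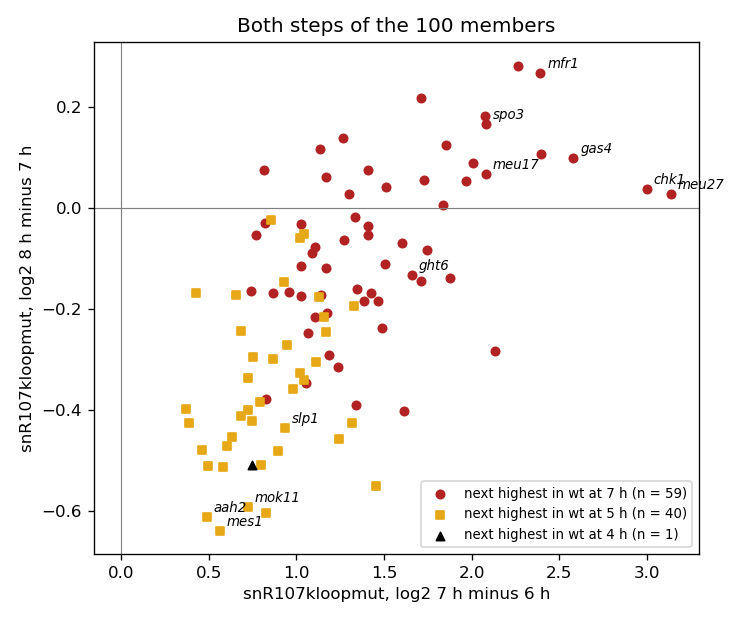
Log2 difference of 7 h minus 6 h (horizontal) and of 8 h minus 7 h (vertical) in snR107kloopmut cells for the 100 members, by the stage at which wt was next highest after 6 h. Members next highest at 7 h in wt (red, n = 59) tend to lie to the right of and above those next highest at 5 h (yellow, n = 40), with medians of 1.41 and −0.07 against 0.81 and −0.39.

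Wider gene lists placed the members in the programme. Of 39 sporulation and spore wall genes tested, 10 of them members, 29 were higher and 5 lower at 6 h than in -N cells of snR107kloopmut. Between 6 h and 7 h, 27 of the 39 were higher and 2 lower, with a median of 0.72, where 21.4% of all features were higher and 23.1% lower. Non-members among them included *mok14*, an alpha-glucan synthase gene that rose by 2.06 ± 0.17 and was highest at 8 h in snR107kloopmut, and *spo5*, a sporulation RNA-binding protein gene, which fell by 1.19 and was highest at 5 h. Of 24 genes of the meiotic divisions, 6 of them members, 14 were higher and 8 lower between 6 h and 7 h. The 8 that fell included *rec8*, *moa1*, *sgo1* and *crs1*, which encode a cohesin, a kinetochore protein, a shugoshin and a meiotic cyclin, and none of the 8 was a member.

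Of 19 transcription factor genes, 3 of them members, 8 were higher and 2 lower between 6 h and 7 h; *cuf2* (1.63 ± 0.19) and *atf31* (1.25 ± 0.21) had the largest rises among the non-members. The list of 16 stress and trehalose genes held 1 member, *tps1*, and had 2 higher and 4 lower, or 1 higher and 11 lower with library totals. The 10 protease and autophagy genes held no member and had 4 higher and 2 lower, or 2 higher and 4 lower with library totals. All 16 tested genes of meiotic prophase lay outside the members, and 14 of them fell between 6 h and 7 h while none rose, with a median of −1.07. With library totals the sporulation list had 16 higher and 8 lower, the division list 6 higher and 8 lower and the factor list 4 higher and 10 lower. Of the 12019 features tested, 933 were then higher and 6059 lower. The direction of the division, factor and protease lists thus depends on the scaling.

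The members move together, so their promoters were searched for known meiotic elements. Windows of 250 bases upstream of the annotated start were read from the RefSeq genome ASM294v3 for the 98 members whose coordinates equal those in the deposited table, and both strands were searched. The Mei4 element, called FLEX, was searched in 2 spellings. The first, GTAAACA, occurred in 38 windows of members (38.8%), against 14.8% of 5136 protein-coding windows, and the other spelling, GTAAATA, in 24 (24.5%), against 14.4%. Either one occurred in 52 windows of members (53.1%), against 26.6% of all. Other elements searched included the CRE TGACGT (4.1% of members, 5.5% of all), the TR box TTCTTTGTT of Ste11 (2.0% and 1.6%), the MBF element ACGCGT (1.0% and 2.6%) and CCCCTC, bound by Rst2 (5.1% and 1.7%). A match is a string of letters and was not shown to be bound. In snR107kloopmut the 52 members with a FLEX match had a median rise of 1.03 between 6 h and 7 h, and the 46 without one had a median of 1.31. The sets also differed in their wt course, since 28 of the 52 but 12 of the 46 were next highest at 5 h in wt. The difference in rise was not tested.

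The windows of *ght6*, the member with the highest score, and of the 4 highest-scoring members with at least 2 FLEX matches are shown 5′ to 3′ on the strand of the gene, ending at the base before the annotated start. Capitals mark the FLEX matches on either strand. The *ght6* window (chrIII:204483-204732) holds none, the *meu17* window (chrII:2213373-2213622, minus strand) has 2, *mug73* (chrIII:624528-624777, minus strand) has 3, *gas4* (chrII:4205997-4206246) has 2 and *for3* (chrIII:1002500-1002749) has 2. In *gas4* the matches lie 180 to 174 and 133 to 127 bases before the start.
ght6: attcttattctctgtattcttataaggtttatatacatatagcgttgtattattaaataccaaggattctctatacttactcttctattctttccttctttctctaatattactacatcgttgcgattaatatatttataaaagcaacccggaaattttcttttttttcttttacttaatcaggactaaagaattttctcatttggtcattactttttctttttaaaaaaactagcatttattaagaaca
meu17: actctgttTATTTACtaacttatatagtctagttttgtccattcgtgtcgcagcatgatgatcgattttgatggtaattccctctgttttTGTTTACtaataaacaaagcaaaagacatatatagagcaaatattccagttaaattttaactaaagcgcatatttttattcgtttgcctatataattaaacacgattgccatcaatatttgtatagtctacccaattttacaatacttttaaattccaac
mug73: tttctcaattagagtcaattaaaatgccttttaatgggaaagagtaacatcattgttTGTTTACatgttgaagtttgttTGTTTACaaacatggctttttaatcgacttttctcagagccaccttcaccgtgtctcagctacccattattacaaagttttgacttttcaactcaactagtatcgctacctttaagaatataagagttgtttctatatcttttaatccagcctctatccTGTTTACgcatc
gas4: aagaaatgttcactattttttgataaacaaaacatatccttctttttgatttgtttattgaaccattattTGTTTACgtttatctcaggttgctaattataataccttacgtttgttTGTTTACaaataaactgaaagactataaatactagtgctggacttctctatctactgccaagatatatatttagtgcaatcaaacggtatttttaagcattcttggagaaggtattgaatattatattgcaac
for3: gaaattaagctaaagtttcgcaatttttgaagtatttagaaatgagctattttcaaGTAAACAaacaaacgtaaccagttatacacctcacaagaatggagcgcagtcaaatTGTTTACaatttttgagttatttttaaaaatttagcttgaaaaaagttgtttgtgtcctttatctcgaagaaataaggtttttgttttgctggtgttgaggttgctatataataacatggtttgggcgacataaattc

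The median length of the members was 1946 bases, against 1766 over all protein-coding features, and 56% had a single coding exon, against 53.3%. Chromosome I held 51 members, chromosome II 33 and chromosome III 16, against 45.5%, 36.4% and 18.0% of all protein-coding features. There were 16 members with *mug* or *meu* symbols, which were given to genes up-regulated in meiosis, against 2.14% of all protein-coding features. Neighbouring protein-coding genes were both members in 7 pairs. Of these, *mug86* with *mes1* and *ubc11* with *chk1* share no bases. In contrast, *shg1* with *dma1*, *ams1* with *dhd1*, *aah2* with *mok11*, *nbl1* with *psf2* and *chk1* with *meu27* overlap on opposite strands and may share reads.

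Other features of any kind covered a median of 72.5% of a member's length, against 61.9% over all protein-coding features. Coverage was under 10% of the length in 20 members, against 15.5% of all protein-coding features, among them *mug96*, *mug94*, *prl46*, *spn5*, *pxl1* and *mob1*. In an alternative added after the data were seen, all 20 of these rose between 6 h and 7 h in snR107kloopmut, with a median of 1.09, and 19 were highest after 6 h. The other 80 had a median of 1.15.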

How the data were processed

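Poly(A)+ RNA was sequenced from 40 libraries. Per the submitters' processing notes, reads were handled with bcl2fastq 2.20, fastp 0.23.1, STAR 2.6.1d and featureCounts of Subread 2.0.6. The authors deposited raw counts of reads per annotated feature, with coordinates and feature lengths. The genome build, annotation release and strand setting are not given in the sources used here. The names in the header of the deposited count table stood 1 place off and were moved back. Coordinates of 12594 of 12602 features matched by identifier equalled those of RefSeq ASM294v3, from which names and upstream sequence were taken.

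Counts were fitted with edgeR 4.0.16 in R 4.3.3 (TMM scaling, quasi-likelihood test, 1 coefficient per group, all 40 libraries), on 12019 features left after edgeR's filter on low counts (665 removed), with Benjamini-Hochberg adjustment over all of them and a threshold of 0.05. RPKM used TMM-scaled library sizes and the deposited lengths. Genes were named by rule: the 10 highest scores, members of the fixed lists, and, among members of at least 1 RPKM at 6 h in either strain, the 4 highest and 4 lowest by strain difference at 6 h and by the step between 6 h and 8 h in snR107kloopmut, and the 3 on either side of the limit. Genes said to be picked by annotation fall outside it and were chosen after their values were seen. Some items that the rule names are not reported here. Members and lists were chosen with earlier results of these data known. Upstream windows of 250 bases were used, with no bases of the gene's own annotated feature. Windows could still lie within a neighbouring feature, as the *aah2* window does within *mok11* and most of the *chk1* window within *ubc11*. FLEX matches in such windows were counted too. Alternatives were library totals in place of TMM, DESeq2 1.42.0, no filter, the rule of choice on TMM-scaled CPM or log2(CPM + 0.1), a size limit of 1 on the log2 scale, each replicate left out, and a replicate block. The test was also run on simulated counts from independent libraries, in which most features did not change between 6 h and 7 h. Its outcome is not given here. Such a run cannot speak to the dependence on scaling or to aliquots of the same culture.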

Additional observations from a re-analysis of the deposited data

Results flagged for a closer look

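The step between 6 h and 7 h had opposite signs in the strains. Over the 100 members, its median on the log2 scale was 1.18 and 1.08 in the snR107kloopmut cultures, against −0.69 and −0.75 in the wt cultures. The difference between the strains was not tested, and the negative wt values follow from choosing members by their wt maximum at 6 h.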

How the results depend on the processing

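With library totals in place of TMM, the median difference between snR107kloopmut and wt over the members changed sign to 0.04 at -N, 0.05 at 1 h and 0.02 at 2 h. It was −0.98 at 6 h and 0.49 at 7 h. On that scale 44 members were lower at 8 h than at 7 h in snR107kloopmut, against 2414 of the 12019 features tested. Single genes that changed sign were *rsv1* (−0.12) and *abc1* (−0.19) at 6 h against -N, and *mug94* (−0.01), *aah2* (−0.02), *css1* (−0.12) and *snp27* (−0.14) at 7 h against 6 h. With a size limit of 1, 64 members were higher at 7 h than at 6 h and 0 lower at 8 h than at 7 h in snR107kloopmut, and 36 were higher than wt at 8 h. Over the 12019 features tested these counts were 935, 82 and 1405. Leaving out 1 replicate at a time, the count of members lower at 8 h than at 7 h ran from 4 to 25. The count over all features ran from 240 to 1376. The median strain difference at 7 h ran from −0.01 to 0.04, being −0.002 without wt replicate 2. With a replicate block, 99 members were higher at 6 h than in -N cells, 100 at 7 h than at 6 h, and 27 lower at 8 h than at 7 h. Over the 12019 features tested these counts were 3930, 2724 and 1448. The rule itself kept 91 of the 100 members with TMM-scaled CPM, 97 with log2(CPM + 0.1), 91 without wt replicate 1 and 93 without wt replicate 2. The pairing by replicate number was not used, since same-numbered deviations of the strains correlated at −0.065 to 0.167, and those of stages within snR107kloopmut at −0.308 to 0.473. Depth was not limiting for most members, and 2 cultures a group and overlapping features limit the rest.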
